A study of Mus musculus with 18 samples.

Results

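The genes described here encode enzymes of glycolysis, 10 of the 41079 genes counted in cKit-selected mouse bone marrow cells. They were chosen by name: Hk2, Gpi1, Pfkl, Aldoa, Tpi1, Gapdh, Pgk1, Eno1, Pkm and Ldha, and all 10 had enough fragments to be tested in every comparison. Transcripts were counted by RNA-seq in 6 groups of 3 libraries: AE9a cells given C16, AE9a cells given RE, AE9a cells given DMSO, and wild-type (WT) cells given C16, RE or DMSO. AE9a is a shortened product of the fusion gene RUNX1-RUNX1T1, which drives a form of acute myeloid leukaemia, and DMSO is the solvent control. The study describes drugs against WDR5 and MLL1, subunits of a histone methyltransferase complex. Which of these the treatments C16 and RE act on, their dose, the length of treatment, the age of the mice and how AE9a was brought into the cells are not given in the sources used here. Nothing in the labels says that replicates came from separate animals, so p-values may measure only technical spread between samples.

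Glycolysis splits glucose into pyruvate in the cytosol. Hexokinases trap glucose as a phosphate, phosphofructokinase commits it to the pathway, aldolase cleaves the sugar, and the later enzymes harvest ATP and NADH. Lactate dehydrogenase regenerates the NAD that the pathway needs, and proliferating blood progenitors and leukaemia cells are known for high use of this route. In many cell types the genes respond to hypoxia-inducible factor, which binds a hypoxia core written ACGTG or, with another first base, GCGTG, and to MYC, which binds the E-box with the letters CACGTG.

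Several libraries stood apart. Totals ran between 16053727 and 27207748 fragments a library. Counts scaled to library size are given as CPM, scaled by the TMM method. Runx1t1, part of which lies in the fusion, stood at 0.211 to 4.22 CPM in AE9a C16 libraries, at 35.4 to 44.9 CPM in AE9a RE libraries and at 33.4 to 46.2 CPM in AE9a DMSO libraries, against 0 to 0.388 CPM over the 9 WT libraries. The library labelled AE9a C16 replicate 3, at 0.211 CPM, thus lay within the WT range in this check of its label, and counts of calls for the members, isoenzymes and lists in the C16 and DMSO comparison are also given without it. By the root mean square difference of log2 CPM, the 3 libraries labelled AE9a C16 lay 0.44 to 0.45 from the library labelled WT C16 replicate 2, and 0.64 to 0.98 from the AE9a DMSO libraries. Among themselves AE9a C16 replicates 1 and 2 lay 0.17 apart, and replicate 3 lay 0.40 and 0.42 from them. The library labelled WT C16 replicate 2 lay 0.81 and 0.86 from WT C16 replicates 1 and 3, and 0.46 from WT DMSO replicate 2. Runx1t1 was at 0 CPM in this library, as its label would have it, while by distance it lay nearer the AE9a C16 libraries than WT C16 replicates 1 and 3. Whether the labels of this library and of AE9a C16 replicate 3 are right was not tested. Kit, the marker used for selection, was at 221 to 324 CPM in AE9a C16 libraries and at 1360 to 1620 CPM in AE9a RE libraries, against 858 to 1190 CPM in AE9a DMSO libraries. In WT libraries it was at 110 to 128 CPM with C16 and 84.0 to 213 CPM with RE, against 59.6 to 128 CPM with DMSO. In each WT group replicate 2 differed from replicates 1 and 3, as given with the WT results.

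Per transcript length (TPM), Eno1 was the highest member and Aldoa the lowest in all 6 groups. Under DMSO in AE9a cells Eno1 averaged 1574 ± 62.7 TPM, Pgk1 1031 ± 54.5 TPM, Pkm 746 ± 30.7 TPM, Gpi1 731 ± 9.998 TPM, Ldha 719 ± 17.2 TPM and Tpi1 675 ± 54.9 TPM (SD, n = 3). Pkm, Gpi1, Ldha and Tpi1 were neighbours in that order, and the ranges of each with the next overlapped. Pfkl followed at 70.6 ± 4.18 TPM, Hk2 at 52.5 ± 2.24 TPM and Gapdh at 41.9 ± 5.48 TPM. Aldoa, at 19.1 ± 1.91 TPM, shares 1372 of its 1845 annotated exon bases with Gm57854 on the same strand, and it held only 149 to 462 fragments a library. Gapdh, the glyceraldehyde-3-phosphate dehydrogenase gene often used as a reference gene, has many processed pseudogenes and held 424 to 4962 fragments. The levels of both genes may miss fragments, and their rank is uncertain. Eno1 also has the retrocopy Eno1b, which held 296 to 760 fragments a library, against 14578 to 38530 for Eno1.

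**Figure D1:**
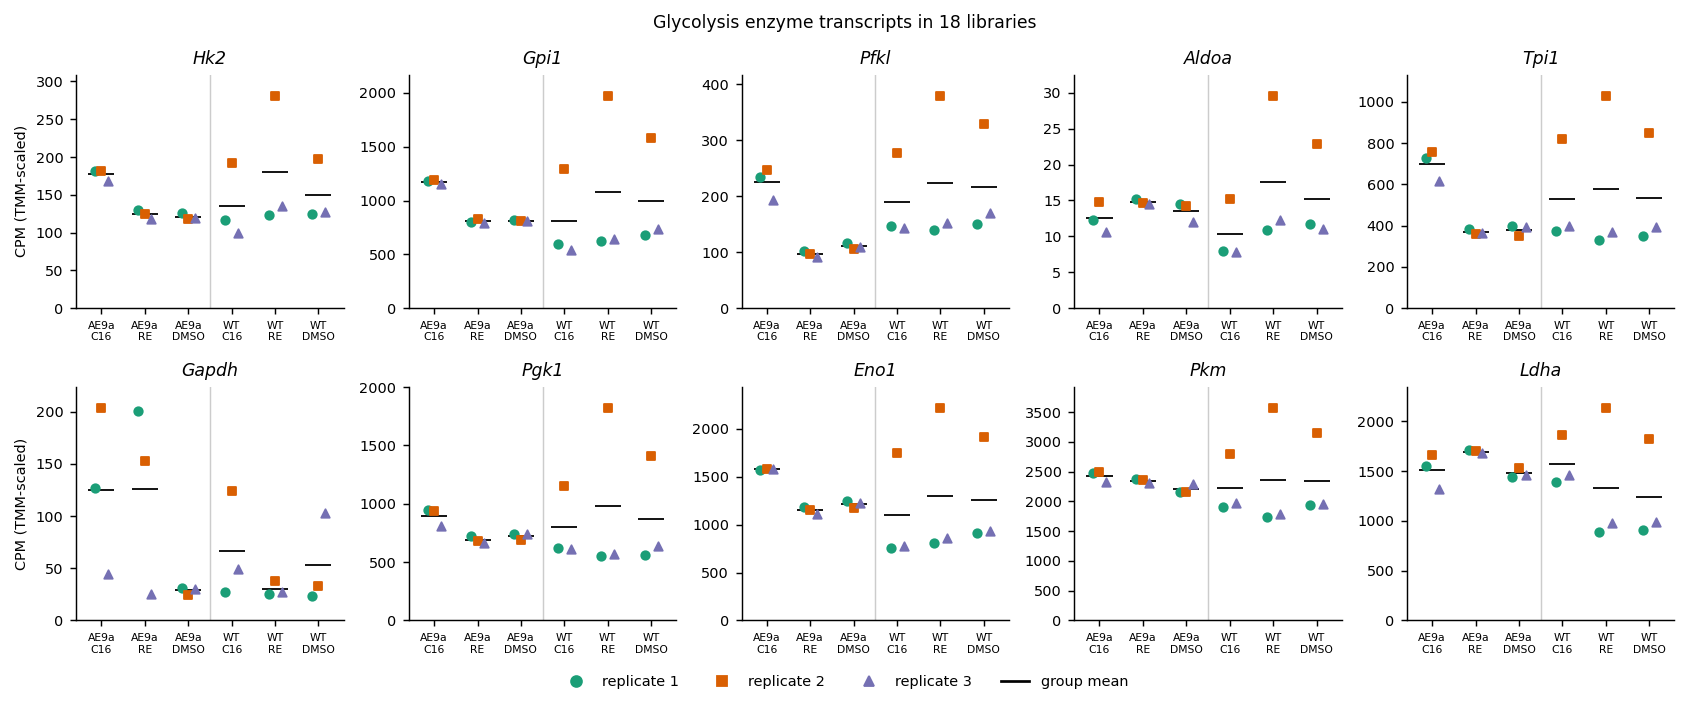
Levels of the 10 genes in TMM-scaled CPM (vertical axis, from 0) by group (horizontal axis), with 1 point per library, shape and colour by replicate number, and a bar at the mean of 3 libraries. In AE9a cells Pfkl, Tpi1, Gpi1, Hk2 and Eno1 sit higher with C16 than with RE or DMSO in every library, replicate 2 is the highest WT library for all 10 genes with C16 and RE and for 9 of 10 with DMSO, and Gapdh jumps between libraries of 1 group.

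In AE9a cells, the question was how the members stand after C16 relative to DMSO. Pfkl, Tpi1, Hk2, Gpi1, Eno1, Pgk1 and Gapdh rose, 7 of the 10 members, and none fell (edgeR quasi-likelihood test, Benjamini-Hochberg adjusted p under 0.05 over all genes). C16 changed much of the transcriptome: 66.3% of the 14704 genes tested were called in either direction with 33.1% higher and 33.2% lower. The members' median log2 change was 0.41, beside 0 over all genes tested. For 8 of the 10 members the C16 and DMSO libraries did not overlap, as was so for 71.6% of all genes tested.

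Among the enzymes of the early steps, Pfkl (chromosome 10, 77822781 to 77845641, GRCm39), the liver-type phosphofructokinase, came first by size among the members whose libraries were tight. Its level was 234, 247 and 193 CPM in C16 libraries, against 117, 106 and 109 CPM in DMSO libraries. All C16 libraries lay above all DMSO libraries, with a log2 change of 0.97 ± 0.09 (SE; adjusted p = 1.2e-05, edgeR). Hk2 (chromosome 6, 82702004 to 82751437), an inducible hexokinase bound to mitochondria, was at 181, 182 and 168.5 CPM with C16, against 126, 119 and 119 CPM with DMSO. The groups did not overlap and the log2 change was 0.50 ± 0.05 (adjusted p = 2e-05, edgeR). Gpi1 (chromosome 7, 33900752 to 33929761), which turns glucose 6-phosphate into fructose 6-phosphate, had 1181, 1195 and 1154 CPM with C16, against 818, 809.5 and 809 CPM with DMSO. Its libraries were tight within each group and its log2 change was 0.49 ± 0.03 (adjusted p = 2.6e-06, edgeR). Aldoa (chromosome 7, 126394406 to 126399537), the aldolase of muscle and most other tissues, was at 12.3, 14.8 and 10.6 CPM with C16, against 14.6, 14.2 and 11.98 CPM with DMSO. Those groups overlapped (log2 −0.15 ± 0.12, adjusted p = 0.29, edgeR).

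Of the enzymes that handle triose phosphates, Tpi1 (chromosome 6, 124787549 to 124791121), which interconverts the products of aldolase, had 728, 755 and 617 CPM with C16, against 401, 350 and 393.5 CPM with DMSO. Every C16 library exceeded every DMSO library, with a log2 change of 0.83 ± 0.08 (adjusted p = 1.7e-05, edgeR). Gapdh (chromosome 6, 125138812 to 125143450) was at 127, 203 and 44.6 CPM with C16, against 30.9, 24.7 and 30.5 CPM with DMSO. The C16 libraries were far apart, and its log2 change of 2.08 ± 0.70 (adjusted p = 0.026, edgeR) was no longer called when any 1 of 5 of the 6 libraries was left out, with adjusted p = 0.054 without C16 replicate 1 and 0.096 without C16 replicate 2. Pgk1 (chromosome X, 105230706 to 105247305), which makes the first ATP of the pathway, had 950, 938 and 808 CPM with C16, against 740, 687 and 743.5 CPM with DMSO. The groups did not overlap and the log2 change was 0.26 ± 0.07 (adjusted p = 0.0059, edgeR).

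Of the last steps, Eno1 (chromosome 4, 150321165 to 150333336), the widely expressed enolase, had 1572, 1580 and 1579 CPM with C16, against 1244, 1172 and 1225 CPM with DMSO. Its log2 change was 0.33 ± 0.04 (adjusted p = 3.8e-05, edgeR), with no overlap. Pkm (chromosome 9, 59563859 to 59586655), the pyruvate kinase gene whose splice forms M1 and M2 cannot be told apart in counts per gene, had 2483, 2486 and 2320 CPM with C16, against 2156, 2166 and 2297 CPM with DMSO. Its groups did not overlap, but the log2 difference of 0.09 ± 0.04 did not pass (adjusted p = 0.077, edgeR). Ldha (chromosome 7, 46491698 to 46505051), the main lactate dehydrogenase subunit of glycolytic tissue, had 1556, 1665 and 1323 CPM with C16, against 1440, 1534 and 1460 CPM with DMSO. These overlapped, with a log2 difference of −0.01 ± 0.07 (adjusted p = 0.88, edgeR).

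Without the library labelled AE9a C16 replicate 3, 8 members were called higher and none lower, Pkm being added at 0.12 (adjusted p = 0.036, edgeR), while Pfkl stood at 1.07 and Tpi1 at 0.91. In that fit 31.6% of 15009 genes were called higher and 33.1% lower. When all 18 libraries shared 1 estimate of the spread, only 2 members were called, Pfkl at 1.02 and the widely spread Gapdh at 2.12. Tpi1, Hk2, Gpi1, Eno1 and Pgk1 were not. In that fit 3836 of 15809 genes were called higher and 3398 lower. The biological coefficient of variation was 0.103 over AE9a libraries, 0.329 over WT libraries and 0.243 over all. Markers of other cells moved with C16 in AE9a libraries. Summed over 10 erythroid genes, C16 libraries held 2.7 to 34.1 CPM, against 540 to 711 CPM with DMSO, with 9 of 10 called lower. Over 8 mast cell genes they held 215 to 2070 CPM, against 9580 to 13300 CPM, with 8 of 8 lower. Over 8 megakaryocyte genes they held 60.4 to 154 CPM, against 259 to 377 CPM, with 6 of 8 lower, and over 8 neutrophil genes 1440 to 1840 CPM, against 3150 to 3630 CPM, with 6 of 8 lower. Over 7 progenitor genes, Kit among them, they held 1130 to 1310 CPM, against 2120 to 2620 CPM, with 3 higher and 2 lower. Monocyte and macrophage genes summed to 719 to 733 CPM, against 644 to 781 CPM, with 1 of 8 higher and 1 lower. With AE9a C16 replicate 3 left out, lower calls were 9 of 10 erythroid, 8 of 8 mast cell, 6 of 8 megakaryocyte and 7 of 8 neutrophil genes. No defining marker of these lists was at 0 in all libraries of either group. The part of these shifts in the members' changes was not tested, and in bulk RNA fewer cells of a type and less RNA per cell cannot be told apart.

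With RE against DMSO in AE9a cells, log2 differences of the members other than Gapdh lay between −0.23 and 0.16. Eno1 fell, 1 of the 10 members, and none rose, where 29.0% of all genes tested were called in either direction and 16.8% lower. The RE and DMSO libraries of 3 members, Pfkl, Pkm and Ldha, did not overlap, where 49.1% of all genes had no overlap. The C16 and RE comparisons share the DMSO libraries, so they are not independent. Eno1 had 1184, 1149 and 1115 CPM with RE, against the DMSO values above, with ranges that overlapped. Its log2 change was −0.12 ± 0.04 (adjusted p = 0.037, edgeR), and the call was lost without RE replicate 2 (adjusted p = 0.11), RE replicate 3 (0.11), DMSO replicate 1 (0.13) or DMSO replicate 3 (0.095). Pfkl had 102, 96.4 and 91.7 CPM with RE, and each of these lay below every DMSO library. Its log2 difference of −0.23 ± 0.09 did not pass (adjusted p = 0.075, edgeR), but passed with the replicate number as a block (adjusted p = 0.04, edgeR), where 31.2% of genes were called. Gapdh had 200, 152 and 25.4 CPM with RE, a spread as wide as with C16, and a log2 difference of 2.1 ± 0.71 (adjusted p = 0.053, edgeR). Ldha had 1710, 1701 and 1680 CPM with RE, above every DMSO library, with a log2 difference of 0.16 ± 0.07 (adjusted p = 0.13, edgeR). The members' median was −0.03, beside −0.01 over all genes tested. Erythroid genes summed to 379 to 483 CPM with RE, with 4 of 10 called lower, and monocyte and macrophage genes to 396 to 492 CPM, with 6 of 8 lower. Mast cell genes summed to 16700 to 19300 CPM with RE, against 9580 to 13300 CPM with DMSO, with 0 of 8 called. That test takes its spread from all 9 AE9a libraries, and C16 replicate 3 held 215 CPM, against 1550 and 2070 CPM in the other C16 libraries. The 0 calls therefore do not show that mast cell genes were unchanged with RE. Other sums without overlap were 2780 to 3180 CPM with RE and 2120 to 2620 CPM with DMSO for progenitor genes, and 435 to 556 CPM with RE and 259 to 377 CPM with DMSO for megakaryocyte genes. Neutrophil genes summed to 3700 to 5160 CPM with RE and 3150 to 3630 CPM with DMSO, and T and NK genes to 14.4 to 17.8 CPM with RE and 26.9 to 34.6 CPM with DMSO, with Cd3e at 0 in both. Of these lists, 1 of 7 progenitor, 1 of 8 megakaryocyte and 3 of 8 neutrophil genes were called higher, and 2 of 7 progenitor, 0 of 8 megakaryocyte, 1 of 8 neutrophil and 2 of 2 tested T and NK genes lower. Their part in the members' values was not tested.

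Set directly against RE, C16 gave higher levels of Pfkl, Tpi1, Gpi1, Hk2, Eno1 and Pgk1, 6 of the 10 members, and none was lower, where 37.5% of all genes tested were called higher, 37.2% lower and 74.6% in either direction. For 7 of the 10 members the C16 and RE libraries did not overlap, as for 77.8% of all genes tested. The log2 differences were 1.21 ± 0.09 for Pfkl (adjusted p = 1.6e-06, edgeR), 0.92 ± 0.08 for Tpi1, 0.53 ± 0.03 for Gpi1, 0.50 ± 0.05 for Hk2, 0.45 ± 0.04 for Eno1 and 0.38 ± 0.07 for Pgk1 (adjusted p = 0.00056, edgeR). Pfkl thus averaged 225 ± 28.4 CPM with C16 and 96.7 ± 5.24 CPM with RE (SD, n = 3 each). Ldha differed by −0.17 ± 0.07 (adjusted p = 0.051, edgeR), and it was called lower with the replicate block (adjusted p = 0.031, edgeR), where 75.8% of genes were called, with DESeq2 (−0.20, adjusted p = 0.012) and with limma-voom (−0.18, adjusted p = 0.041). The difference stood at −0.09 without the library labelled AE9a C16 replicate 3 (adjusted p = 0.098, edgeR), and at −0.09 with the block as well (adjusted p = 0.052). Aldoa differed by −0.23 ± 0.12 (adjusted p = 0.11), Pkm by 0.04 ± 0.04 (adjusted p = 0.40) and Gapdh by −0.02 ± 0.66 (adjusted p = 0.98, all edgeR). Aldoa and Ldha were both called lower without C16 replicate 2, at −0.37 and −0.25. Without the library labelled AE9a C16 replicate 3, 6 members were called higher, where 36.2% of all genes tested were. The marker sums given above for C16 and RE differ as well: 9 of 10 erythroid, 8 of 8 mast cell, 8 of 8 megakaryocyte and 6 of 8 neutrophil genes were lower with C16 than with RE, and 6 of 8 monocyte and macrophage genes were higher. Their part was not tested.

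**Figure D2:**
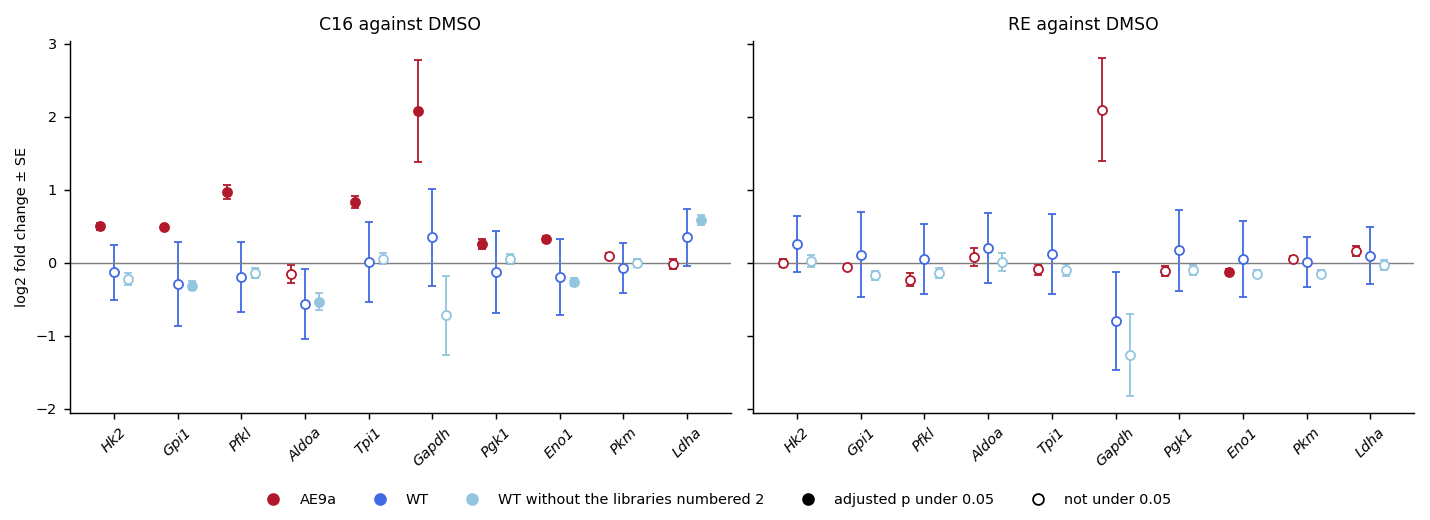
Log2 fold change of each gene (vertical axis, fitted value ± SE) for C16 against DMSO (left) and RE against DMSO (right), in AE9a cells, in WT cells and in WT cells without the libraries numbered 2. Filled points had an adjusted p under 0.05; with C16, 7 genes are filled for AE9a, 0 for all WT libraries and 4 for WT without the libraries numbered 2.

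The stretch before the transcription start of the members is shown for a gene with a large C16 change in AE9a cells and a single hypoxia core of the second form (Pfkl), a gene with a large change and neither core nor E-box (Tpi1), a gene with a small change and a pair of cores of the first form (Pgk1), and a gene without a called change in AE9a cells and with E-boxes (Ldha). RefSeq on GRCm38.p6, another build than that of the counts, gives 16 start sites for the 10 members, and each line holds the 250 bases before 1 of them, 5′ to 3′ on the gene's strand. Capitals mark the E-box and both forms of the hypoxia core on either strand, and each E-box also holds the first form on both strands. The windows are chr10:78009808-78010057, minus strand for Pfkl, chr6:124814159-124814408, minus strand for Tpi1, chrX:106186850-106187099, plus strand for Pgk1 and chr7:46845554-46845803, plus strand for Ldha.
Pfkl: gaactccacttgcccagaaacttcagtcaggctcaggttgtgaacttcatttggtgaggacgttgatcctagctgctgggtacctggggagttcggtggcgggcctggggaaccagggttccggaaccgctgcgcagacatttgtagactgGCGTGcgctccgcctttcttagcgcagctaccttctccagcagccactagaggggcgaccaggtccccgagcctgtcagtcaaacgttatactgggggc
Tpi1: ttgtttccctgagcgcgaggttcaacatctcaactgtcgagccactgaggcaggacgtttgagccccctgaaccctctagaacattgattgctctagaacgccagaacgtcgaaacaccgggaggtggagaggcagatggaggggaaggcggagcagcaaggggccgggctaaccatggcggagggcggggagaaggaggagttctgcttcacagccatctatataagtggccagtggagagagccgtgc
Pgk1: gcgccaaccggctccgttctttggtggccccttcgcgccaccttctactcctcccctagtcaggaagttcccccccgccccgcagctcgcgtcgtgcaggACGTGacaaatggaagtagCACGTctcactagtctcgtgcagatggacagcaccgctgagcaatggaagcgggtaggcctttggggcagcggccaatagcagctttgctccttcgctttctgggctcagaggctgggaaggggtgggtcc
Ldha: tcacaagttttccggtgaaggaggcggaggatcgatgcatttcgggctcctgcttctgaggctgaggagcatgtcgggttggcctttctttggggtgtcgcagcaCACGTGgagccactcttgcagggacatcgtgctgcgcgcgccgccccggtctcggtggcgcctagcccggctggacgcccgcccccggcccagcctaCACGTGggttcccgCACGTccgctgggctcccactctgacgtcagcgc
In Ldha the E-boxes begin 145 and 48 bases before the start, and another core of the first form lies 34 bases before it. Of the 10 members 1 had a window with the E-box, 5 with the core ACGTG and 4 with the core GCGTG. By window these were 1, 6 and 6 of 16, but windows of Aldoa and of Eno1 overlap and hold the same sites more than once. In all 32851 mouse windows of this length the E-box was in 6.02%, the first core in 16.6% and the second in 28.2%. The GC box, with the letters GGGCGG that SP factors bind, was in windows of 8 of the 10 members, 10 of 16 windows, and in 32.7% of all mouse windows. A match is a description of these letters and not of binding. Tpi1 held a GC box 67 bases before its start but no capitalised letters, and Ldha was the only member with E-boxes. A relation of these letters to the C16 changes was not tested.

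Isoenzymes of the same steps, listed with the mutase genes Pgam1, Pgam2 and Bpgm, lie outside the members. They were called in both directions with C16 in AE9a cells. Of the 15 genes in this joint list 12 were tested, 3 rose and 6 fell, with a median log2 change of −0.50. Among the mutase genes Pgam1 rose, and Pgam2 and Bpgm were not called. That is 9 of 12 called, beside 66.3% of all genes tested with C16, 33.1% higher and 33.2% lower. Leaving out AE9a C16 replicate 3, 13 were tested, 3 rose and 7 fell, where 31.6% of all genes tested were higher and 33.1% lower. Hk1, the hexokinase of most tissues, fell by 0.98 on the log2 scale, with 242 ± 31.5 CPM with C16 and 461 ± 38.8 CPM with DMSO (adjusted p = 1.6e-05, edgeR, n = 3 each). Hk3, a hexokinase of myeloid cells, rose by 0.42, with 288.5 ± 27.4 CPM with C16 and 209 ± 3.72 CPM with DMSO (adjusted p = 0.00099, edgeR). Hkdc1, at low levels, fell by 4.37, with 0.192 ± 0.161 CPM with C16 and 4.245 ± 0.875 CPM with DMSO (adjusted p = 7.1e-06, edgeR). As a share of the summed TPM of Hk1, Hk2 and Hk3, Hk2 made up 18.8% ± 0.89 with C16 and 12.2% ± 0.726 with DMSO, and Hk1 28.5% ± 3.83 with C16 and 51.5% ± 2.35 with DMSO (SD, n = 3 each). Pfkm, the muscle-type phosphofructokinase, fell by 0.94, and Pfkp, the platelet type, differed by −0.17 (adjusted p = 0.051, edgeR). Pfkl thus made up 64.6% ± 1.59 of the phosphofructokinase TPM with C16, 32.6% ± 2.37 with RE and 40.8% ± 2.23 with DMSO, and the C16 libraries did not overlap the others. In WT cells that share was 58.4% ± 7.31 with C16, 58.5% ± 7.43 with RE and 58.2% ± 7.06 with DMSO, with replicate 2 the highest in each. Aldoc, the brain-type aldolase, fell by 1.75 (23.4 ± 2.97 CPM with C16 and 76.0 ± 6.49 CPM with DMSO, adjusted p = 1.6e-06, edgeR), and Aldoa made up 45.6% ± 2.25 of the aldolase TPM with C16 and 21.8% ± 2.98 with DMSO, shares that are too low where its fragments were missed. Pgam1, the phosphoglycerate mutase between Pgk1 and Eno1, rose by 0.84 (648 ± 19.4 CPM with C16 and 349 ± 28.8 CPM with DMSO). Ldhb, the heart-type lactate dehydrogenase subunit, rose by 1.6 and made up 2.07% ± 0.635 of lactate dehydrogenase TPM with C16, against 0.669% ± 0.0162 with DMSO. Eno3, the muscle enolase, fell by 0.84, and Eno2, the neuronal enolase, by 2.15 at 0.596 ± 0.352 CPM with C16 and 2.65 ± 0.0625 CPM with DMSO. The log2 changes without AE9a C16 replicate 3 were −0.88 for Hk1, 0.33 for Hk3, −0.91 for Pfkm, −1.65 for Aldoc, 0.83 for Pgam1, 1.43 for Ldhb, −0.84 for Eno3 and −1.78 for Eno2. Hkdc1 stood at −3.98 in that fit. The other C16 libraries had Pfkl shares of 65.1% and 65.9%, Hk2 shares of 19.1% and 19.5% and Ldhb shares of 1.68% and 1.72%. With RE, Eno2 rose by 1.32, Hkdc1 by 1.01 and Pfkp by 0.35, while Hk3 fell by 0.53 and Pgam1 by 0.29. Thus 5 of the 12 were called in all, beside 29.0% of all genes tested with RE.

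**Figure D3:**
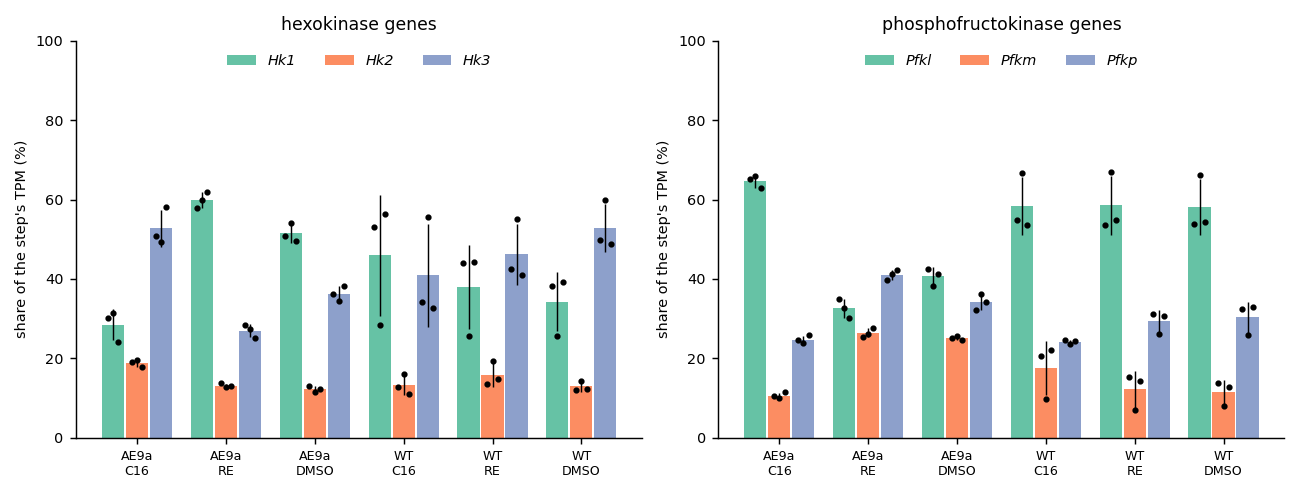
Share of the hexokinase TPM (left) and of the phosphofructokinase TPM (right) held by each gene (vertical axis, percent) in each group (horizontal axis). Bars are means, error bars SDs and dots the 3 libraries; in AE9a cells Pfkl holds 64.6% with C16, against 32.6% with RE and 40.8% with DMSO.

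Neighbouring pathways give the setting for these changes in AE9a cells, and each count is to be read beside the 66.3% of all genes called with C16, 33.1% higher and 33.2% lower. With C16 against DMSO, all 8 genes of the serine branch, which leaves glycolysis at 3-phosphoglycerate, rose, with Phgdh, its first enzyme, up by 1.11 ± 0.06 and Mthfd2, of mitochondrial folate metabolism, averaging 143 ± 6.08 CPM with C16 and 68.95 ± 6.18 CPM with DMSO. Of 10 pentose phosphate genes 8 rose and 1 fell, Prps1, which makes the nucleotide precursor PRPP, rising by 0.86 and Taldo1, the transaldolase, falling by 0.24. Of 20 tricarboxylic acid cycle genes 18 rose and 1 fell, and Idh2, the mitochondrial isocitrate dehydrogenase, rose by 0.99. Of 13 genes for pyruvate entry into mitochondria 7 rose and 2 fell. Pdha1, of pyruvate dehydrogenase, rose by 0.77, and of the kinases that inhibit it Pdk1 rose by 0.99 and Pdk2 fell by 2.78. Among 8 transporters 3 rose and 3 fell, a total near that share: the lactate carriers Slc16a1 and Slc16a7 rose by 0.85 and 2.06, and the glucose carriers Slc2a3 and Slc2a8 fell by 2.46 and 1.12. Slc2a3 averaged 50.5 ± 20.1 CPM with C16 and 268.5 ± 31.5 CPM with DMSO (adjusted p = 2.8e-05, edgeR, n = 3 each). Of 6 genes for fructose 2,6-bisphosphate, the activator of phosphofructokinase, 2 rose and 3 fell, Pfkfb3 rising by 0.43 and Pfkfb2 falling by 0.78. The totals called for pyruvate entry, 9 of 13, and for fructose 2,6-bisphosphate, 5 of 6, differ from that share by few genes.

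Of 21 hypoxia-inducible factor pathway genes 7 rose and 9 fell with C16, a total of 16 beside 66.3% of all genes, Egln3, a hydroxylase that marks the factor for decay, rising by 1.32 and Ero1a, an oxidase of protein folding, falling by 1.04. Of 8 MYC-related genes 3 rose and 4 fell, 7 in all beside the same share. Myc rose by 0.59 ± 0.09 (300 ± 28.5 CPM with C16 and 192 ± 15.7 CPM with DMSO), and Mxd4 and Mxd1, which oppose MYC, fell by 2.04 and 1.52. All 15 cell cycle genes rose with C16, with a median of 0.88. With RE, where 29.0% of all genes were called and 16.8% were lower, the cell cycle list fell in full, 15 of 15 with a median of −0.50, and the serine branch fell in full, 8 of 8 with a median of −0.39, while Myc fell by 0.38, and the tricarboxylic acid cycle list had 7 of 20 lower. The RE counts of these lists were 0 for the cell cycle, 1 for the serine branch and 0 for the tricarboxylic acid cycle when all 18 libraries shared 1 estimate of the spread. In that fit 337 of 15809 genes were called higher with RE and 163 lower. Without the library labelled AE9a C16 replicate 3, the C16 counts were 8 higher of the serine branch, 7 higher and 1 lower of the pentose phosphate list, 17 higher and 1 lower of the tricarboxylic acid cycle and 15 higher of the cell cycle. They were 4 higher and 3 lower of the transporters, 2 and 3 for fructose 2,6-bisphosphate, 7 and 2 for pyruvate entry, 7 and 9 for the hypoxia-inducible factor pathway and 3 and 4 for the MYC-related genes. All of these stand beside 31.6% of all genes higher and 33.1% lower in that fit. Of the 30 genes that the naming rule picked from these lists for C16 against DMSO, 30 kept call and direction, with Slc2a3 at −2.18.

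**Figure D4:**
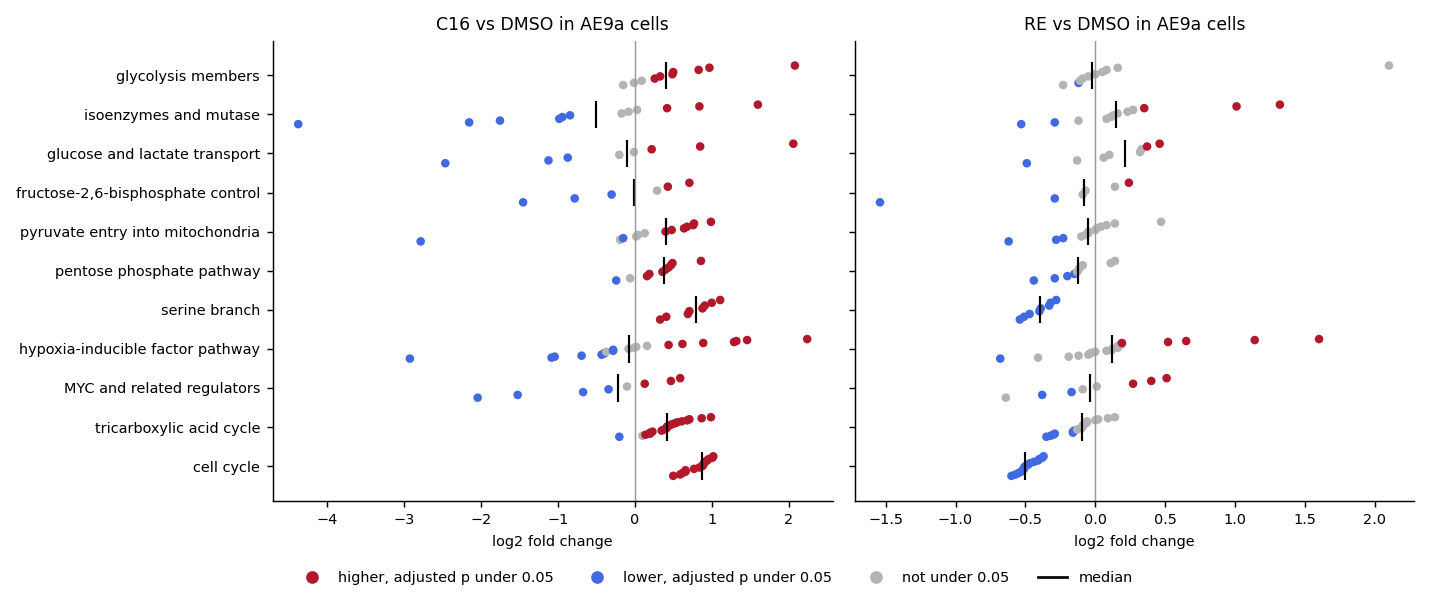
Log2 fold change (horizontal axis) of each tested gene of the 10 members and 10 neighbouring lists (rows) in AE9a cells for C16 against DMSO (left) and RE against DMSO (right); black bars are list medians and colour marks an adjusted p under 0.05. The cell cycle and serine branch lists lie above 0 with C16 and below 0 with RE, and the member medians are 0.41 and −0.03.

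In WT cells no member was called by edgeR with C16 against DMSO, where 3.1% of 15046 genes were, or with RE against DMSO, where 0.0266% were, or with C16 against RE, where 11.9% were. At an unadjusted p under 0.05 the count was also 0 of 10 in each, and DESeq2 and limma-voom called 0. Replicate 2 stood apart in each WT group. Gpi1 had 595, 1298 and 545 CPM in WT C16 replicates 1, 2 and 3, and 622, 1974 and 643 CPM with RE, against 677, 1584 and 739 CPM with DMSO. In replicate 2 it was 2.28, 3.12 and 2.24 times the mean of replicates 1 and 3 with C16, RE and DMSO. Over the members other than Gapdh this ratio lay between 1.30 for Ldha with C16 and 3.23 for Pgk1 with RE, beside 0.989 to 1.03 for the median of all genes.

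Along the pathway, replicate 2 was the highest WT library of its group for every member except Gapdh with DMSO. Hk2 had 116, 191.5 and 99.7 CPM with C16 and 123, 281 and 136 CPM with RE, against 125, 198 and 127 CPM with DMSO. Pfkl had 146, 277 and 143 CPM with C16 and 139.5, 379 and 152 CPM with RE, against 151, 329 and 169 CPM with DMSO. For both genes replicates 1 and 3 lay close together in every group, and the groups overlapped. Tpi1 had 373, 822 and 400 CPM with C16 and 332, 1030 and 368.5 CPM with RE, against 350, 850 and 396 CPM with DMSO. Pgk1 had 625, 1155 and 616.5 CPM with C16 and 555, 1820 and 573 CPM with RE, against 564, 1412 and 642 CPM with DMSO. The spread within each of these groups was larger than any difference between their means. Eno1 had 756, 1751 and 778 CPM with C16 and 809, 2215 and 860 CPM with RE, against 912.5, 1915 and 931 CPM with DMSO. Pkm had 1908, 2794 and 1979 CPM with C16 and 1737, 3569 and 1786 CPM with RE, against 1948, 3147 and 1959 CPM with DMSO. Eno1 thus stood lower with C16 than with DMSO at each replicate number, and Pkm at replicate numbers 1 and 2. Ldha had 1396, 1861 and 1461 CPM with C16 and 891, 2135 and 981 CPM with RE, against 913, 1828 and 991 CPM with DMSO. Aldoa had 7.95, 15.2 and 7.84 CPM with C16 and 10.9, 29.6 and 12.2 CPM with RE, against 11.8, 22.9 and 11.1 CPM with DMSO. Ldha replicates 1 and 3 lay well above those of DMSO with C16, and Aldoa was lowest with C16 at each replicate number. Gapdh was again erratic, with 26.9, 124 and 49.7 CPM with C16 and 25.6, 38.0 and 27.6 CPM with RE, against 23.5, 32.7 and 102.5 CPM with DMSO, and its highest library was not the same number in every group.

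Neutrophil genes summed to 3740 CPM in WT C16 replicate 2, against 3200 and 1930 CPM in replicates 1 and 3. With RE they summed to 21600 CPM in replicate 2, against 3360 and 2730 CPM, and with DMSO to 9880 CPM, against 2950 and 2670 CPM. Megakaryocyte genes summed to 315, 556 and 393 CPM in replicate 2 with C16, RE and DMSO, while the other WT libraries held 2600 to 10800 CPM. Replicates 1 and 3 held 9630 and 10800 CPM with C16, 3900 and 4390 CPM with RE, and 2930 and 2600 CPM with DMSO. Monocyte and macrophage genes summed to 1000, 1700 and 1790 CPM in replicate 2 with C16, RE and DMSO, where the other WT libraries held 544 to 1160 CPM. Erythroid genes summed to 8.39, 40.5 and 28.0 CPM and mast cell genes to 711, 1850 and 1190 CPM in replicate 2, below the other libraries of the same group in each. In replicates 1 and 3, erythroid genes summed to 44.7 and 47.7 CPM with C16 and 106 and 108 CPM with DMSO. Mast cell genes there summed to 1640 and 1580 CPM with C16 and 2350 and 2680 CPM with DMSO. Monocyte and macrophage genes there summed to 544 and 561 CPM with C16 and 1160 and 971 CPM with DMSO. The part of these markers in the members' levels was not tested.

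Without the 3 WT libraries numbered 2, 4 members were called with C16 against DMSO in WT cells, where 41.7% of genes were. Ldha rose by 0.59 ± 0.07 (adjusted p = 0.00017, edgeR, n = 2 each), the remaining C16 libraries lying above the remaining DMSO libraries. Aldoa fell by 0.53 ± 0.12, Gpi1 by 0.31 ± 0.06 and Eno1 by 0.26 ± 0.05. Marker sums of these libraries also differed between C16 and DMSO, as given above, and their part was not tested. Against RE, where 44.3% of genes were called, C16 gave higher Ldha (0.62 ± 0.07) and Pkm (0.15 ± 0.05) and lower Aldoa (−0.54 ± 0.12) and Hk2 (−0.25 ± 0.08). With all 9 WT libraries and the replicate number as a block, C16 gave 1 call against DMSO, Aldoa at −0.55 (adjusted p = 0.024, edgeR), where 24.2% of genes were called. Against RE, where 34.2% were, the block gave 2, Aldoa at −0.69 (adjusted p = 0.0079) and Hk2 at −0.36 (adjusted p = 0.048). RE against DMSO gave 0 calls with the block, where 0.512% of genes were called, and 0 without the libraries numbered 2, where 8.02% were.

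Between AE9a and WT cells under DMSO no member was called by edgeR, where 26.7% of 15809 genes were. At an unadjusted p under 0.05 the count was 1, DESeq2 called 1 and limma-voom 0. Pfkl was the only member whose libraries did not overlap, where 47.7% of all genes had none. It stood between 106 and 117 CPM in the 3 AE9a libraries and between 151 and 329 CPM in the 3 WT libraries. Its log2 difference was −0.97 ± 0.37 (adjusted p = 0.067, edgeR), and −0.86 with the replicate block (adjusted p = 0.031), where 29.1% of genes were called. Without the 3 WT libraries numbered 2, where 50.7% of genes were called, 5 members were higher in AE9a cells and Pfkl was lower, at −0.53 ± 0.09 (adjusted p = 0.00039, edgeR). The higher ones were Ldha at 0.64 ± 0.08, Eno1 at 0.40 ± 0.04, Pgk1 at 0.27 ± 0.07, Gpi1 at 0.20 ± 0.05 and Pkm at 0.18 ± 0.04. For Eno1, Pgk1, Gpi1 and Pkm the difference with all libraries had the other sign, at −0.05, −0.27, −0.30 and −0.09. Under DMSO, mast cell genes summed to 9580 to 13300 CPM in AE9a cells and 1190 to 2680 CPM in WT cells, with 7 of 8 called higher. Erythroid genes summed to 540 to 711 CPM in AE9a cells and 28.0 to 108 CPM in WT cells, with 6 of 10 higher. Progenitor sums were also higher, at 2120 to 2620 CPM in AE9a cells and 1140 to 1500 CPM in WT cells. Megakaryocyte sums were lower in AE9a cells, at 259 to 377 CPM against 393 to 2930 CPM in WT cells. Monocyte and macrophage sums were lower, at 644 to 781 CPM against 971 to 1790 CPM. B lineage sums were lower, at 56.8 to 82.9 CPM against 148 to 216 CPM. T and NK sums were lower, at most 34.6 CPM against at least 68.4 CPM. Neutrophil sums overlapped. The part of these lists was not tested. The genotypes were deposited as separate count tables, and genotype and library batch cannot be told apart.

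The response to C16 in AE9a cells minus that in WT cells was tested as an interaction. No member passed by edgeR, where 13.1% of genes did, and 1 had an unadjusted p under 0.05, while DESeq2 and limma-voom called 0. The differences in log2 change were 1.22 ± 0.52 for Pfkl (adjusted p = 0.13, edgeR), 0.88 ± 0.59 for Tpi1, 0.83 ± 0.61 for Gpi1, 0.69 ± 0.40 for Hk2, 0.57 ± 0.55 for Eno1 and −0.30 ± 0.42 for Ldha. With a block for the replicate number within each genotype, Pfkl, Tpi1, Gpi1, Hk2 and Eno1 passed, all higher in AE9a cells, where 36.8% of genes passed. Without the 3 WT libraries numbered 2, 7 members were higher and Ldha was lower, at −0.54 ± 0.11 (adjusted p = 0.0014, edgeR), where 49.8% of genes were called. Leaving out WT C16 replicate 2 alone gave 2 calls, Pfkl at 1.61 and Hk2 at 1.03. In that fit 3642 of 16258 genes were called higher and 2752 lower. For RE the interaction gave 0 calls by edgeR, DESeq2 and limma-voom, with 1 member at an unadjusted p under 0.05 and 0.0% of all genes called. It also gave 0 with the block, where 0.0443% of genes were called, and 0 without the libraries numbered 2, where 1.25% were.

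The genes whose log2 profile over the 18 libraries lay closest to the mean profile of the 10 members were Hyls1, Mpst, Galns, Eno1b and 1810055G02Rik, at a root mean square difference of 0.17 to 0.18. The members themselves lay 0.16 to 0.97 from it, Hk2 and Pgk1 closest and Gapdh farthest. With Gapdh left out of the mean, a choice made after seeing the data, the closest were Pgd, the 6-phosphogluconate dehydrogenase of the pentose phosphate pathway, 1810055G02Rik, Mpst, Galns and Npepps, at 0.12 to 0.14. The points share the WT libraries numbered 2, which weigh heavily in this measure.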

How the data were processed

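Fragments of cKit-selected bone marrow RNA were counted in 18 libraries, 3 per group. Per the submitters' processing notes, reads passed through fastp 0.23.2, with FastQC 0.11.9 as a check, then HISAT2 2.1.0 on GRCm39 and featureCounts 2.0.3, and DESeq2 was also used, while featureCounts has version 1.6.2 per the file headers. Per the file headers, the deposited counts are raw whole numbers of paired-end fragments falling on a gene's exons, with primary alignments alone and no option for strand, so overlapping genes, antisense genes and copies may share fragments. Library totals were 16053727 to 27207748 fragments.

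Members and lists were chosen with earlier results of these data known. Genes were filtered by filterByExpr, scaled by TMM and tested with edgeR 4.0.16 (R 4.3.3) quasi-likelihood F tests, Benjamini-Hochberg adjusted over all genes at 0.05. A treatment comparison used that genotype's 9 libraries, and genotype and interaction tests used all 18. The steps were tested on simulated data. Levels are CPM; TPM uses the deposited exon lengths. Alternatives were RLE and upper-quartile scaling, no filter, a mean of at least 5 CPM, DESeq2 1.42.0, limma-voom 3.58.1, replicate blocks, fits over more or fewer libraries, and omission of each library in turn. All members were described. From each other list, the genes named were among the largest called changes, at most 2 per direction, given a mean of 5 CPM or more where higher, and isoenzymes were named by step. Likeness used log2(CPM + 0.1).

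Deviations of same-number libraries from their group means were correlated over genes. In WT cells the correlations were 0.58 to 0.88. They were 0.32 to 0.48 between AE9a RE and DMSO, and 0.14 to 0.15 between AE9a C16 and RE. Between AE9a C16 and DMSO they were 0.06 to 0.34, and between genotypes −0.19 to −0.06. No threshold for pairing was set. The distance of WT replicate 2 from the others alone can give such values in WT cells.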

Additional observations from a re-analysis of the deposited data

Results flagged for a closer look

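The difference between the AE9a and the WT response to C16 drew attention for 5 members, in the test with the replicate number as a block within each genotype (edgeR, adjusted over all genes), since the responses there differed by a test of the difference itself. It was 1.2 for Pfkl (adjusted p = 8.1e-05), 0.85 for Tpi1 (0.00074), 0.84 for Gpi1 (0.00057), 0.72 for Hk2 (0.0012) and 0.6 for Eno1 (0.00071), where 36.8% of genes passed. Each was higher in 3 of 3 AE9a C16 libraries than in any AE9a DMSO library, where 71.6% of all genes tested had no overlap in either direction. In the same test without the library labelled AE9a C16 replicate 3, chosen after seeing the data, Pfkl stood at 1.28, Tpi1 at 0.95, Gpi1 at 0.85, Hk2 at 0.73 and Eno1 at 0.59, and these 5 passed again, with Aldoa added at 0.51 (adjusted p = 0.048, edgeR), where 30.3% of genes passed. The test without the block called 0 of them. AE9a C16 and DMSO libraries were not shown to be paired by number.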

How the results depend on the processing

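With C16 against DMSO in AE9a cells 7 members were called, 6 to 8 when a library was left out and 2 with all 18 libraries in 1 fit. These counts take both directions together. Aldoa was called lower in 1 of the 6 fits with a library left out (adjusted p = 0.047, edgeR). With C16 against RE in AE9a cells 6 were called, 6 to 8 with a library left out and 1 with all 18 in 1 fit. In the fit of all 18, 3836 of 15809 genes were higher with C16 and 3398 lower against DMSO. Against RE these were 4491 and 4527. With RE against DMSO in AE9a cells 1 was called, 0 to 1 with a library left out, 0 with RLE scaling, upper-quartile scaling or all 18 in 1 fit, 2 with a mean of at least 5 CPM, DESeq2 or the replicate block, and 3 in the 6 libraries of the groups compared. The replicate block gave 1 call with C16 against DMSO and 2 with C16 against RE in WT cells, 1 for AE9a against WT (also 1 with DESeq2) and 5 for the C16 interaction, all against 0. With the block and without the library labelled AE9a C16 replicate 3, an alternative added after seeing the data, the C16 interaction gave 6. Without the 3 WT libraries numbered 2 the counts without a block were 4, 4, 6 and 8. Leaving out 1 library gave 0 in each of them, except 0 to 2 for the C16 interaction. Other changes of a count of members were within 1.5 times. Over the 8 members without Gapdh and Aldoa, chosen after seeing the data, 6 were called with C16 against DMSO in AE9a cells.

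Signs were followed only for the log2 changes given in the text. Changes not given turned as well. With a library left out, every member turned with RE against DMSO in WT cells. Pfkl with C16 against DMSO in WT cells was then −0.58 to 0.24. Among the changes given, the sign turned in these cases. In AE9a cells, Ldha with C16 against DMSO was 0.04 with all 18 in 1 fit, 0.07 with the block and AE9a C16 library 3 left out, and −0.09 to 0.07 with a library left out. Against RE, Gapdh was 0.19 with limma-voom, 0.07 with the replicate block, 0.18 with the block and AE9a C16 library 3 left out, and −0.56 to 0.48 with a library left out, and Pkm was −0.03 with a mean of at least 5 CPM. In WT cells with C16 against DMSO, with a library left out, Gpi1 was −0.81 to 0.20 and Eno1 −0.70 to 0.25. Against RE, Hk2 was −0.73 to 0.09 and Pkm −0.28 to 0.35, and Pkm was 0.15 without the libraries numbered 2. For AE9a against WT, Eno1 was 0.05 with limma-voom and 0.07 with the block. Without the libraries numbered 2 it was 0.40, Pgk1 0.27, Gpi1 0.20 and Pkm 0.18. With 1 library left out Eno1 was −0.22 to 0.40, Pgk1 −0.50 to 0.27, Gpi1 −0.51 to 0.21 and Pkm −0.20 to 0.18. For the C16 interaction Pgk1 was −0.10 to 0.81 and Pkm −0.05 to 0.42. The cause was not tested beyond the libraries named. Groups of 3 libraries and the wide WT groups limit small changes, and depth limits Aldoa most.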
